A study of Mus musculus with 6 samples.

Results

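A set of 10 Notch pathway genes was followed in whole lungs of mouse embryos at E14.5: the receptors Notch1, Notch2 and Notch3, the ligands Jag1, Jag2 and Dll1, the receptor-modifying enzyme Lfng, and the targets Hes1, Hey1 and Hey2. They were chosen by gene symbol, with earlier results of these data known. All 10 had a feature on the array that is annotated to that gene alone, out of 19946 genes tested. RNA was measured on 6 arrays, 3 from mutant and 3 from control embryos. Mutants carried Shh-Cre with floxed (loxP-flanked) forkhead genes, Foxp1, Foxp2 and Foxp4 by the series title, and both groups were on a mixed C57BL/6 and 129X1 background. The mutants' genotype label gives Foxp1flox/flox a second time in place of Foxp2, and the series text calls them DKO; here they are described by the title. Control embryos carried Shh-Cre alone, so the recombinase was common to both groups. Shh-Cre is active in the lung endoderm, the source of the epithelium, and leaves the floxed alleles of mesenchyme, vessels and blood intact. The series text speaks of 3 embryos a group, numbered here as in the titles.

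Notch receptors are cleaved when a ligand on a neighbouring cell binds them, and the freed intracellular domain enters the nucleus, joins the DNA-binding protein RBPJ and switches on targets of the Hes and Hey families. Fringe enzymes such as Lfng add sugars to the receptor and so change which ligands it answers to. In the developing lung the pathway is known for setting secretory against ciliated and neuroendocrine fates in the airway epithelium, and it also works in vessels, pericytes and smooth muscle.

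The 2 members whose difference between the groups passed the threshold with each array left out in turn were Lfng, lower in mutants, and Hey2, higher in mutants. Their promoters are shown because both hold the core motif of RBPJ, the DNA-binding partner of Notch. The sequences are the 250 bases before the transcription start, 5′ to 3′ on the gene's strand, from RefSeq (GRCm38.p6), with Lfng at chr5:140607091-140607340 on the plus strand and Hey2 at chr10:30842784-30843033 on the minus strand. Capitals mark the motif TGGGAA or its reverse complement.
Lfng: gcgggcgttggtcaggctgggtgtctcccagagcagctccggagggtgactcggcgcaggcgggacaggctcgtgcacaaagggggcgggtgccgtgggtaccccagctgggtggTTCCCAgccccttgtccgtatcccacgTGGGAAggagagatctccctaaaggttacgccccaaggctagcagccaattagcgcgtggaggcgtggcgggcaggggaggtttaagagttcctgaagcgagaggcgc
Hey2: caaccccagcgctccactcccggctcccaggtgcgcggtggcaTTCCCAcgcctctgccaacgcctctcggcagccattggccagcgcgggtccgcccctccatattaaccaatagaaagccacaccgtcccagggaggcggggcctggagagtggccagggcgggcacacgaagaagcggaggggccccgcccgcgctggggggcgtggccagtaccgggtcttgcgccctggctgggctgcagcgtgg
In Lfng the motif lay at -108 to -103 in the forward direction and at -135 to -130 in reverse, counted back from the start. In Hey2 it lay at -207 to -202 in reverse, and a second, forward copy spanned the start at -3 to 3 and is not printed. A search on both strands of windows running from 250 bases before to 50 bases after the start found it in 2 of 9 member promoters, which belong to 8 members. Of all 32851 promoters, 25.6% hold it, so the presence of these letters does not set the members apart. The forkhead core TGTTTAC was found in 0 of the 9 member promoters and in 3.65% of all promoters. Hes1 and Hey1 had no promoter in the set searched, so they were not examined for either motif and are not shown.

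Levels are log2 expression values that the authors computed by RMA (robust multi-array average). Differences are mutant minus control and carry their standard error (SE) from limma. A gene was called when its p, adjusted by Benjamini-Hochberg over all genes tested, was under 0.05. Of the 10 members, 2 were called higher in mutants (Notch2 and Hey2) and 2 lower (Notch1 and Lfng), and 6 were not called. Among all genes tested, 7.66% were called, 3.84% higher and 3.83% lower in mutants. All 3 mutant values lay on one side of all 3 control values for 5 members (those 4 and Jag1), against 25.9% of all genes. Mutants were above in 3 members and below in 2, against 13.4% and 12.6% of all genes. Since the members were chosen with earlier results of these data known, their shares beside those of all genes are a description only. The median size of the difference, sign disregarded, was 0.147 over the members and 0.0766 over all genes, while the median with sign was -0.04 over the members and -0.0055 over all genes. Each member read above the array median on all 6 arrays. Mutant lungs varied more among themselves than control lungs in 7 of 10 members, and in 68.8% of all genes.

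**Figure D1:**
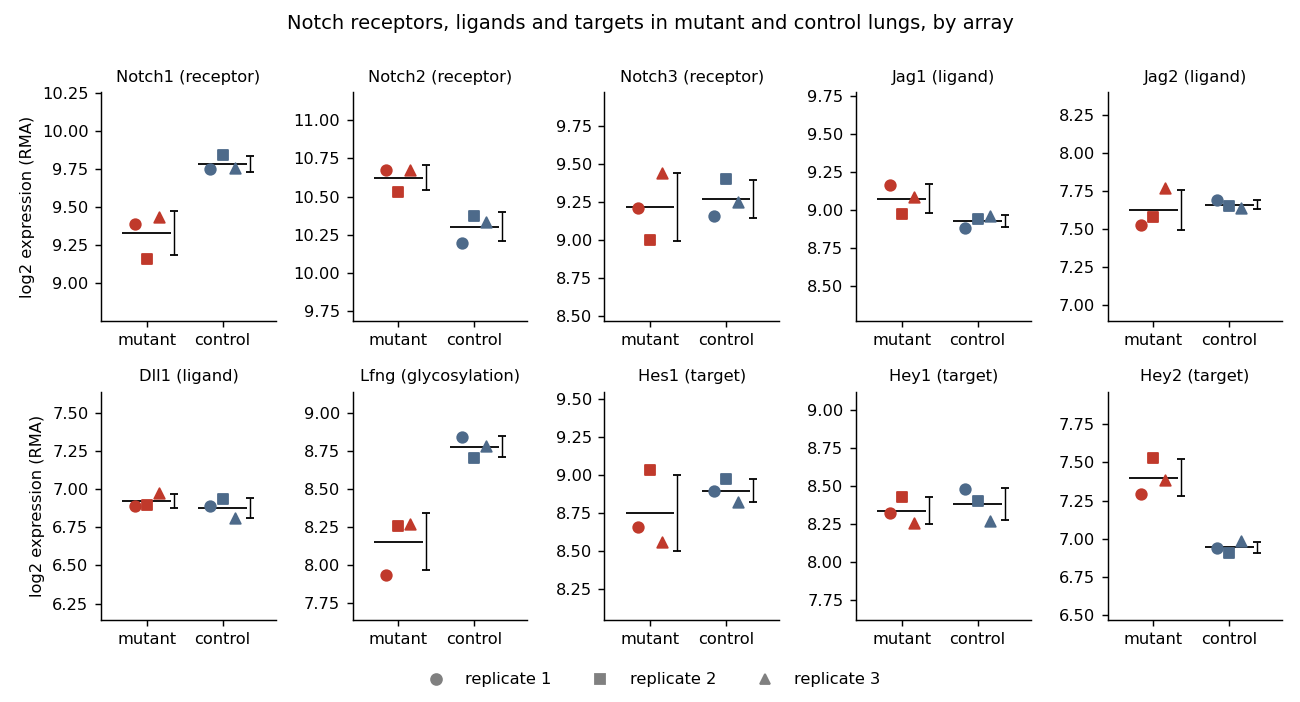
Log2 expression of each of the 10 genes on each array, mutants left and controls right, with the group mean (line) and SD (bar), n = 3 each; every panel spans the same height of 1.5 log2 units. Mutants lie apart from controls in Notch1, Notch2, Jag1, Lfng and Hey2, and the groups overlap in the other 5.

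The embryos' genotype was checked on the targeted genes. Foxp2 read 9.55 to 9.60 in mutants and 10.52 to 10.54 in controls (-0.95 ± 0.05, limma adjusted p = 4.75e-05), Foxp4 8.56 to 8.96 in mutants and 9.37 to 9.43 in controls (-0.64 ± 0.10, limma adjusted p = 0.00591), and Foxp1 9.25 to 9.55 in mutants and 9.68 to 9.75 in controls (-0.31 ± 0.08, limma adjusted p = 0.0661). The position of these features against the floxed exons was not analysed here. Mutant 1 stood apart in heart muscle genes: the median deviation from the control mean over 14 such genes was 1.10 in mutant 1, -0.26 in mutant 2 and -0.20 in mutant 3. Mutant 3 and control 3 were male by Xist and Y-linked genes and the other 4 embryos female. The labels name no batch.

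The receptors did not move together. Notch1, a receptor of epithelium and endothelium, read 9.39, 9.16 and 9.44 in mutants 1 to 3, against 9.75, 9.85 and 9.75 in controls 1 to 3. Every mutant value was below every control value, and mutant 2 was the lowest. The group means were 9.33 ± 0.15 in mutants and 9.78 ± 0.053 in controls (SD, n = 3 each), a difference of -0.45 ± 0.08 (SE) or 1.37-fold lower, with a limma adjusted p of 0.0131. The call ended when a control was left out, with limma adjusted p values of 0.0501 without control 1, 0.0665 without control 2 and 0.0539 without control 3, and the difference then lay between -0.47 and -0.42.

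Notch2, the receptor that the lung mesenchyme also carries, went the other way. It read 10.67, 10.53 and 10.67 in mutants 1 to 3, against 10.19, 10.38 and 10.34 in controls. The groups did not overlap, although mutant 2 and control 2 stood 0.15 apart. The means were 10.62 ± 0.084 in mutants and 10.30 ± 0.095 in controls (SD, n = 3 each), which gave 0.32 ± 0.07 (SE), 1.25-fold higher, with a limma adjusted p of 0.0337. This call was lost with any single array left out except mutant 2 (limma adjusted p 0.0781 without mutant 1, 0.0979 without mutant 3, and 0.123, 0.0718 and 0.104 without controls 1, 2 and 3). The difference itself lay between 0.27 and 0.36 in those 5 fits. The call was lost too when all features of the array were tested (0.0889).

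Notch3, a receptor of vascular smooth muscle and pericytes, showed no call. It read 9.21, 8.998 and 9.44 in mutants, against 9.16, 9.40 and 9.25 in controls, and the mutants enclosed the whole range of the controls. The difference was -0.05 ± 0.12 (SE, n = 3 each; limma adjusted p = 0.867), and its 95% interval of -0.32 to 0.21 leaves room for a change in either direction.

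Within each array the receptors were also set against each other, to ask whether the 2 genes of a pair differed in response. Notch1 minus Notch2 was -1.28, -1.37 and -1.23 in mutants and -0.44, -0.53 and -0.58 in controls, a shift of -0.78 with no overlap. Notch1 minus Notch3 shifted by -0.40 and Notch2 minus Notch3 by 0.38, both without overlap between the groups. Each of these 3 shifts had an exact two-sided permutation p of 0.1, the smallest that 3 against 3 arrays can give, and 0.15 after adjustment over the 6 pairs examined. None can pass a threshold of 0.05 in this design.

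**Figure D2:**
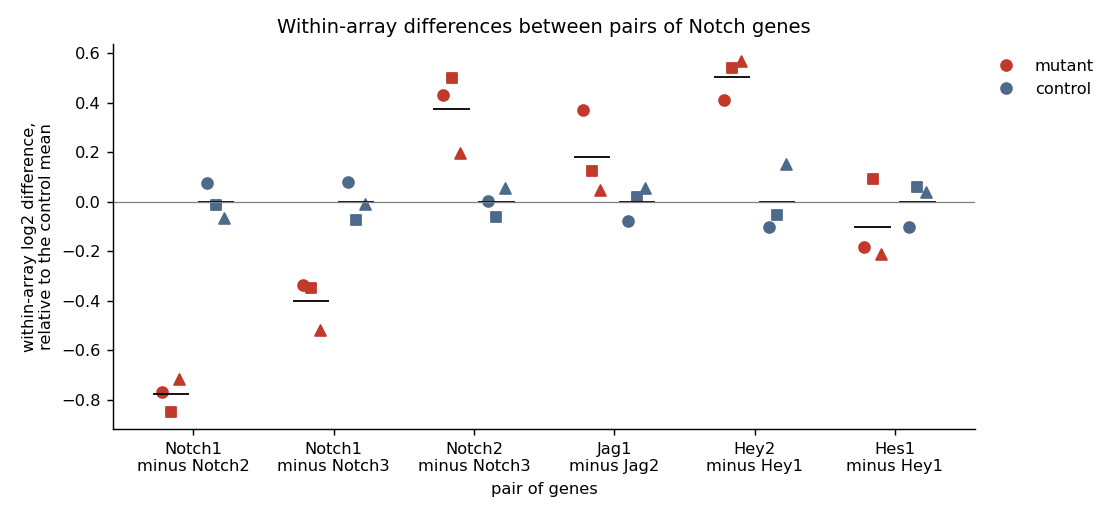
Within-array log2 difference between the 2 genes of each of 6 pairs, relative to the control mean of that pair; points are arrays (circle, square and triangle for replicates 1 to 3), lines are group means, n = 3 each. Mutants lie wholly below controls for Notch1 minus Notch2 (shift of -0.78) and wholly above for Hey2 minus Hey1 (0.50), and the groups overlap for Jag1 minus Jag2 and Hes1 minus Hey1.

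None of the 3 ligands was called. Jag1, the Jagged ligand of airway epithelium and vessels, read 9.16, 8.98 and 9.09 in mutants, against 8.88, 8.94 and 8.96 in controls. The mutants lay above the controls, with 0.014 between mutant 2 and control 3. The difference was 0.15 ± 0.07 (SE, n = 3 each; 95% interval -0.0048 to 0.30), with an unadjusted p of 0.0561 and a limma adjusted p of 0.266.

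Jag2, the other Jagged ligand, read 7.53, 7.58 and 7.77 in mutants and 7.70, 7.66 and 7.64 in controls. Mutant 3 was the highest of the 6 arrays and mutant 1 the lowest. The difference was -0.03 ± 0.07 (SE, 95% interval -0.21 to 0.14, limma adjusted p = 0.864). Jag1 minus Jag2 shifted by 0.18 with overlapping groups (exact two-sided permutation p = 0.2, adjusted p = 0.24 over 6 pairs).

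Dll1, a Delta ligand that in the lung is known from neuroendocrine cells, read 6.89, 6.90 and 6.98 in mutants and 6.89, 6.94 and 6.81 in controls. All 6 values lay within 0.17 log2 units and the groups overlapped. The difference was 0.04 ± 0.06 (SE, limma adjusted p = 0.786), with a 95% interval of -0.10 to 0.18.

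Lfng showed the largest difference of the 10 members. Its product, lunatic fringe, extends O-fucose on Notch receptors and favours signalling by Delta over Jagged ligands. It read 7.94, 8.26 and 8.27 in mutants, against 8.85, 8.71 and 8.79 in controls. Mutant 1 was well below the other mutants, and the highest mutant was still 0.44 below the lowest control. The means were 8.15 ± 0.19 in mutants and 8.78 ± 0.070 in controls (SD, n = 3 each), a difference of -0.63 ± 0.10 (SE) or 1.54-fold lower, with a limma adjusted p of 0.0067. It was called with each array left out (-0.68 to -0.52, limma adjusted p at most 0.0384). In size it exceeded the differences of 97.3% of all genes tested.

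Of the targets, Hey2 rose and the other 2 were not called. Hey2 encodes a basic helix-loop-helix repressor of arteries, smooth muscle and heart ventricle. It read 7.29, 7.53 and 7.38 in mutants, against 6.94, 6.90 and 6.98 in controls. The lowest mutant was 0.31 above the highest control. The means were 7.40 ± 0.12 in mutants and 6.94 ± 0.039 in controls (SD, n = 3 each), a difference of 0.46 ± 0.07 (SE) or 1.37-fold higher, with a limma adjusted p of 0.00714. The call held with each array left out (0.40 to 0.51, limma adjusted p at most 0.0423). Mutant 1, the array with the high heart muscle genes, had the lowest Hey2 of the mutants, and without it the difference was 0.51 (limma adjusted p = 0.00526). With the median of the heart muscle genes as a covariate the difference was 0.48 (limma adjusted p = 0.00381). That covariate was high in mutant 1 alone, so these 2 fits are not separate checks. The cause of the Hey2 difference was not tested.

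Hey1, the relative of Hey2 in the same repressor family, read 8.32, 8.43 and 8.26 in mutants and 8.48, 8.40 and 8.27 in controls. The groups overlapped almost fully, and the difference was -0.05 ± 0.07 (SE, 95% interval -0.22 to 0.13, limma adjusted p = 0.817). Hey2 minus Hey1 was -1.03, -0.90 and -0.88 in mutants, against -1.54, -1.49 and -1.29 in controls. This shift of 0.50 left the groups apart (exact two-sided permutation p = 0.1, the smallest possible, and 0.15 adjusted over 6 pairs).

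Hes1, the most widely used Notch target, read 8.65, 9.03 and 8.56 in mutants and 8.89, 8.97 and 8.82 in controls. Mutant 2 was the highest of the 6 arrays while mutants 1 and 3 were below every control. The difference was -0.15 ± 0.12 (SE, n = 3 each; limma adjusted p = 0.586). It was called without mutant 2 (-0.29, limma adjusted p = 0.0418), but that array held the highest mutant value, so leaving it out favours a fall. Hes1 minus Hey1 shifted by -0.10 with overlapping groups (exact two-sided permutation p = 0.4, adjusted p = 0.4 over 6 pairs).

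**Figure D3:**
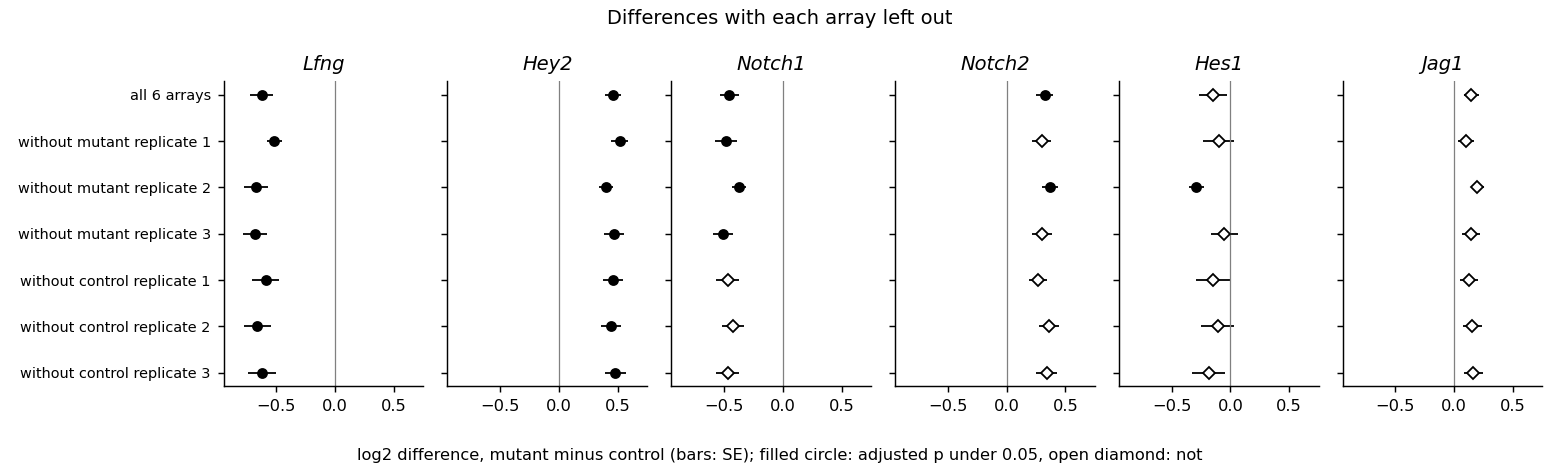
Log2 difference, mutant minus control, with its SE for 6 of the 10 genes, with all 6 arrays (top row) and with each array left out; filled circles have a limma adjusted p under 0.05 and open diamonds do not. Lfng and Hey2 are filled throughout, Notch1 is open in the 3 rows that leave out a control, and Hes1 is filled only without mutant replicate 2.

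The rest of the pathway was described from a list of 44 other genes, of which 42 were measured. One was called lower and 0 higher, while 41 were not called, against 7.66% called among all genes. At an unadjusted p under 0.05 there were 8 of 42, or 19.0%, against 19.8% of all genes. The median difference was -0.0034 and the median size 0.0616.

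The gene called was Dtx4, which encodes a Deltex ubiquitin ligase of the family that binds the Notch intracellular domain. It read 8.15, 8.38 and 8.46 in mutants, against 9.41, 9.27 and 9.21 in controls, with a gap of 0.75 between the groups. The difference was -0.97 ± 0.09 (SE, n = 3 each) or 1.96-fold lower, with a limma adjusted p of 0.000688, and with each array left out it stayed between -1.03 and -0.88 (limma adjusted p at most 0.00562). The other Deltex genes measured, named after their values were seen, were not called: Dtx1 was at 0.09, Dtx2 at 0.13 and Dtx3 at 0.05.

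In the remaining roles no gene was called, and the member with the smallest p in each is given as a value. Among proteins that act on the ligand, the ubiquitin ligase gene Neurl1b was at -0.31 ± 0.09 (SE, limma adjusted p = 0.0934). The rest of this role, named after their values were seen, went both ways: Mib1 at 0.13, Mib2 at 0.11 and Neurl1a at -0.05. In the nuclear complex, the coactivator gene Maml3 was at 0.24 ± 0.07 (limma adjusted p = 0.0878), and Rbpj itself, named after its value was seen, was at 0.04. In the Hes family, Hes6, whose product inhibits Hes1, was at -0.26 ± 0.08 (limma adjusted p = 0.103). For the other ligands it was Dner, at -0.25 ± 0.08 (limma adjusted p = 0.121). The protease gene Adam17, whose product can cut the receptor outside the cell, was at 0.15 and the O-fucosyltransferase gene Pofut1, which prepares the receptor for fringe, at 0.13. Heyl among the targets and the receptor Notch4, known from endothelium, were both at -0.11, and Numbl among the inhibitors was at 0.05. These last 5 had limma adjusted p values from 0.202 to 0.827.

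**Figure D4:**
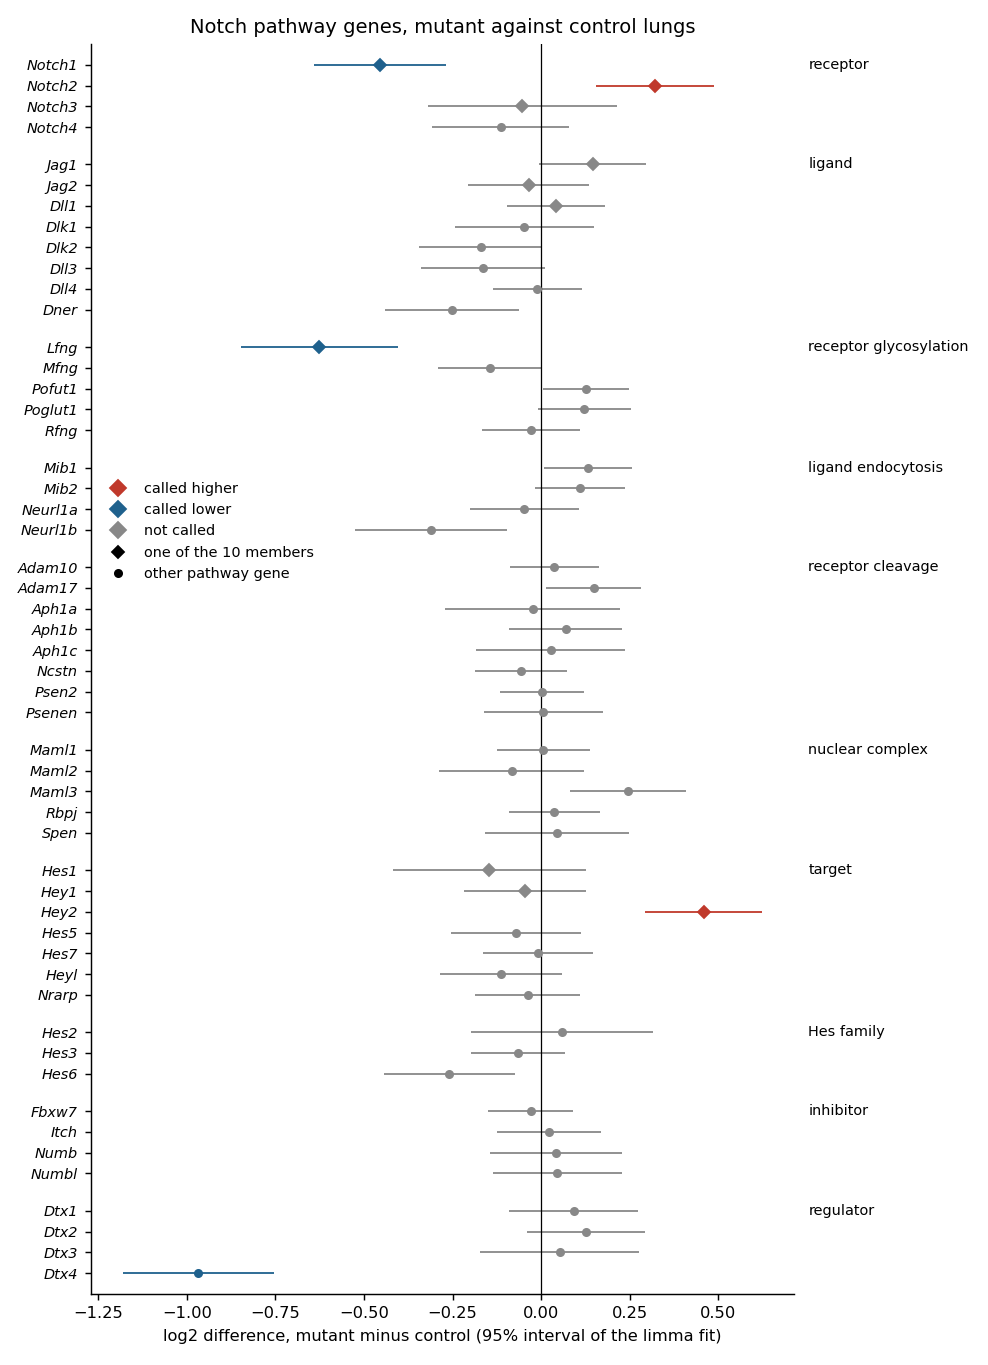
Log2 difference, mutant minus control, with the 95% interval of the limma fit for the 10 members (diamonds) and 42 other Notch pathway genes (circles), grouped by role. Coloured points were called; they are Notch1, Lfng and Dtx4 (lower) and Notch2 and Hey2 (higher).

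The levels of cell type markers are set beside these results, since in RNA of a whole lung fewer cells of a type and less RNA per cell cannot be told apart. Of 18 markers of lung epithelium, 10 fell, 0 rose and 8 were not called, led by the splicing regulator Esrp2 (-1.15), the keratin Krt8 (-1.03), and the lung and foregut factors Foxa2 (-0.94) and Nkx2-1 (-0.88). Their summed linear signal was 10739 to 13277 in mutants and 16295 to 17032 in controls. The median deviation of this list was -0.60, -0.38 and -0.27 in mutants 1 to 3. The epithelial lists described below ordered the mutants otherwise. Distal tip markers were at -0.77, -0.84 and -0.96, and secretory and proximal airway markers at -0.27, -0.32 and -0.24. Notch1 deviated by -0.39, -0.62 and -0.35 and was lowest in mutant 2. Lfng deviated by -0.84, -0.52 and -0.51 and was lowest in mutant 1. Mutant 1 is also the array with the high heart muscle genes, and without it the difference of Lfng was -0.52 (limma adjusted p = 0.00433) and that of Notch1 -0.49 (limma adjusted p = 0.0205). The part of the epithelium list in the difference of Lfng, Notch1 or Dtx4 was not tested.

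Markers of secretory and proximal airway cells, the fate that Notch signalling favours in the airway, fell in 5 of 10 genes, and 0 rose. These were led by the aldehyde dehydrogenase gene Aldh1a7 (-4.28), the tight junction gene Cldn10 (-2.40), the proximal airway factor Sox2 (-2.08) and the club cell cytochrome Cyp2f2 (-1.35), and the summed signal was 578 to 632 in mutants and 2668 to 2927 in controls. Aldh1a7 takes a large share of the control sum, and the median difference of this list was -0.25. Of its 10 genes, 4 read above the array median in controls. Distal tip markers fell in 5 of 8 genes with 0 higher, led by the surfactant gene Sftpc (-5.58), Irx2 (-1.50), Irx1 (-1.33) and the FGF-responsive factor Etv5 (-0.87). The distal tip genes not called, named after their values were seen, went both ways. Spry2 was at 0.18 (unadjusted p = 0.0253 in the limma fit), Bmp4 at -0.13 and Id2 at -0.01. Multiciliated markers fell in 3 of 10 (Tppp3 at -0.88, Ccno at -0.38 and Myb at -0.37), with 0 higher, and of 8 measured neuroendocrine markers none was called (0 higher, 0 lower, and 1 at an unadjusted p under 0.05 in the limma fit, Insm1 at -0.25, named after its value was seen). Only 1 of these 8 read above the array median in controls. The basal cell factor Trp63 was higher (0.34), the single call among 5 basal genes. The rest of that list, named after their values were seen, went both ways. Krt5 was at 0.37, while Krt15 was at -0.38, Ngfr at -0.34 and Krt14 at -0.19. The median difference of the basal list was -0.19.

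Smooth muscle markers fell in 8 of 10 genes with 0 higher, among them Myh11 (-2.57), Cnn1 (-2.21), Actg2 (-1.99) and Synpo2 (-1.82), and the summed signal was 4622 to 5557 in mutants and 10570 to 10916 in controls. Of 5 pericyte genes, the growth factor receptor gene Pdgfrb was higher (0.36), the others were not called, and the summed signal was 3372 to 3696 in mutants and 2955 to 3065 in controls. Pdgfrb takes a large share of that sum, and the median difference of the pericyte list was 0.021, with mutants 1 to 3 at -0.03, 0.05 and 0.05. Of 16 endothelial genes 0 were called in the limma fit, and 2 had an unadjusted p under 0.05. Both, named after their values were seen, were lower: Erg (-0.29, limma adjusted p = 0.0521) and Emcn (-0.25, limma adjusted p = 0.0934). Mutants lay wholly below controls in 4 of the 16 and wholly above in 0, against 12.6% and 13.4% of all genes. The list had a median difference of -0.084, with mutants 1 to 3 at -0.14, -0.13 and 0.003. Its summed signal was 13637 to 15379 in mutants and 15245 to 15366 in controls. Whether any of these cell types carries the Hey2 or Notch2 difference was not tested. Of the 14 heart muscle genes 0 were called (0 at an unadjusted p under 0.05). The summed signal was 9746, 1991 and 1870 in mutants 1 to 3 and 3834 to 4047 in controls, so mutants 2 and 3 lay below every control. Actc1, named after its value was seen, takes a large share of the control sum. It read 11.37, 8.70 and 8.61 in mutants 1 to 3 and 10.88 to 11.08 in controls. Of the other lists, 2 of 11 mesenchymal genes rose (Fgf10 at 0.77, Twist1 at 0.57) and 1 fell (Foxf1 at -0.38), and 3 of 8 macrophage genes rose (Adgre1 at 0.49, Csf1r at 0.43, Cx3cr1 at 0.39) with 0 lower. In 6 mesothelial genes 1 rose (Lrrn4 at 0.67) and 0 fell, while the median difference of that list was -0.074. In 6 red cell genes 3 fell (Slc4a1 at -1.09, Alas2 at -1.04, Epb42 at -0.43). In 5 neural crest and Schwann genes 1 rose (Fabp7 at 0.56) and 2 fell (Ret at -0.85, Erbb3 at -0.57).

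**Figure D5:**
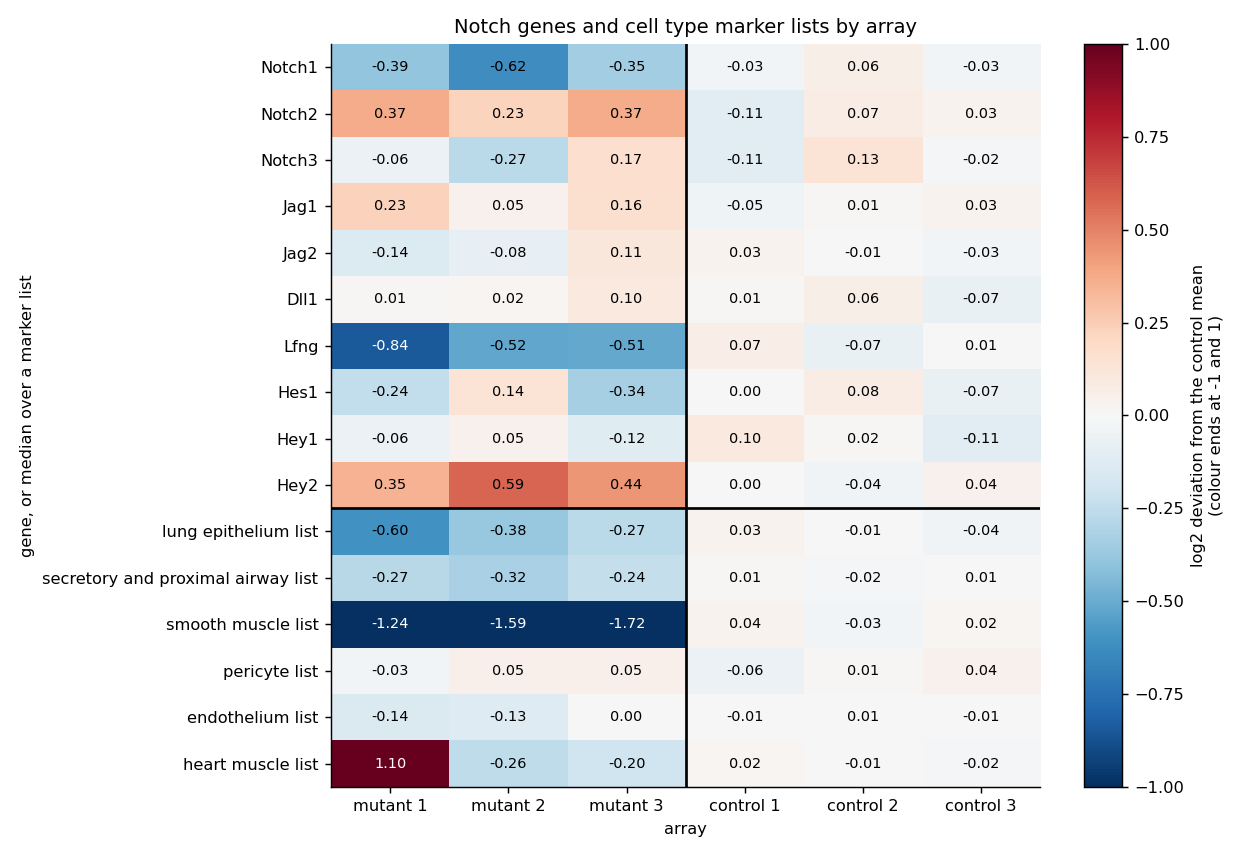
Log2 deviation of each array from the control mean for the 10 genes (above the line) and, below it, the median deviation over 6 cell type marker lists; mutants left, controls right, and each cell prints its value. Lfng is lowest in mutant 1 (-0.84) and Notch1 in mutant 2 (-0.62). The lung epithelium and endothelium lists are lowest in mutant 1 (-0.60 and -0.14). The secretory and proximal airway list differs little among mutants 1 to 3 (-0.27, -0.32 and -0.24). A link between a gene and a list was not tested. The heart muscle list is high in mutant 1 alone (1.10).

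The genes whose profile over the 6 arrays was most like that of a called member were looked up among 18059 other protein-coding genes by Pearson's r, over arrays that share the difference between the groups. Nearest to Lfng were Eva1a (r = 0.9995, difference -1.05), Phactr2 (0.9963, -0.11) and the cathepsin gene Ctsz (0.996, -0.28). For Hey2 they were Serpinf1, which encodes a secreted serpin (0.9996, 0.59), the kinesin gene Kif3a (0.9968, 0.18) and Lrrtm3 (0.9951, 1.46). Nearest to Notch1 stood the scaffold gene Iqgap1 (0.9994, -0.28), the protease gene Htra3 (0.9964, -0.51) and the metalloproteinase inhibitor gene Timp3 (0.9954, -0.78), and nearest to Notch2 the coactivator gene Ncoa3 (0.9926, 0.19), the ankyrin gene Ank3 (0.9914, 0.21) and Abca8b (0.9904, 0.32). These values rest on 6 arrays and the best of many genes, and are given as a description.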

How the data were processed

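The authors deposited log2 values for 6 arrays. Their tools were oligo, RMA and limma, per the submitters' processing notes; versions, settings and build: not given in the sources used here. RMA compresses differences of dim genes, and with no detection calls the 3 arrays a group set the precision. Features with a single gene symbol (21797 of 35556) entered, the one with the highest mean standing for a gene, which left 19946 genes. Symbols were checked through Entrez identifiers against RefSeq (GRCm38.p6, 21698 features matched). Each of the 10 members had 1 such feature. Mutants were compared with controls by lmFit and eBayes of limma 3.58.1 under R 4.3.3, two-sided, over all 6 arrays with genotype as the only term. On simulated data the same comparison called 15 of 50 genes changed 1.25-fold and 39 of 50 changed 1.5-fold. A gene not called can therefore still differ by such a fold. The simulation gave 152 calls in all, against 1528 in the real data, so its shares need not carry over. No set test was run. The limma p-values set a difference against the spread between embryos within the groups, taken as equal in both and moderated over all genes. The permutation p-values come from regrouping the 6 arrays. The members, gene lists and tests were chosen with earlier results of these data known. The text names all members, every other Notch gene called or the one with the smallest p in its role, up to 4 called genes of the marker lists described, and the 3 genes most like each called member. A gene outside this rule is marked as named after its value was seen. Alternatives were median centring, repeated quantile normalization, leaving out dim genes, averaging or testing all features, a trend with robust moderation, array weights, the replicate number as a block, leaving out each array, a covariate for sex or for heart muscle genes, and other thresholds.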

Additional observations from a re-analysis of the deposited data

How the results depend on the processing

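Lfng and Dtx4 kept their direction and call under all 18 alternatives, and Hey2 under 17, its fold being under 1.5 (1.37). Notch1 lost its call in 4 alternatives and Notch2 in 10. With quantile normalization repeated, all features tested, the replicate block or sex as a covariate, members called higher fell to 1, since Notch2 then had an adjusted p of 0.0553, 0.0889, 0.083 or 0.0573, and members called lower stayed at 2. Requiring a fold of at least 1.5 left 0 members higher and 1 lower, and of all genes 549, 241 higher and 308 lower. With each array left out, members called ranged from 1 to 2 higher and 1 to 3 lower, other Notch genes from 0 to 1 higher and 1 to 3 lower, and all genes from 774 to 1745 (359 to 862 higher, 414 to 883 lower). The count over all genes was 876, 793 and 774 without controls 1, 2 and 3. Testing all features left 828 genes, 393 higher and 435 lower. A threshold of 0.1 gave 1165 genes higher, and 1 other Notch gene higher and 2 lower, and array weights gave 1 other Notch gene higher. Small differences that were not called turned sign: Notch3 was at 0.021 and Jag2 at 0.011 with array weights, and with each array left out Notch3 ranged from -0.17 to 0.056 (positive without control 2 and without mutant 2), Jag2 from -0.11 to 0.016 (positive without mutant 1) and Hey1 from -0.10 to 0.0025 (positive without control 1). The cause was not tested. The shifts of the 6 pairs of genes kept their sign with each array left out. Deviations of same-numbered arrays correlated at -0.0686, 0.049 and 0.154, and same-numbered embryos were of the same sex. With so few arrays these values cannot settle whether the replicate numbers pair the samples.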
